A study of Mus musculus with 11 samples.

Results

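Chemokines are small secreted proteins that draw cells along a gradient. Their genes were examined in mouse lung mesenchymal cells following pneumonectomy (PNX), an operation that takes out part of the lung, or a sham operation. The genes were chosen by symbol: every Ccl and Cxcl gene of the count table, with Cx3cl1, Xcl1, Pf4 and Ppbp, which made 41 of 24411 rows. Of these, 33 reached a CPM of 1 in at least 2 of 11 libraries and are described below. CPM, a library-scaled count, is here taken over the TMM-scaled total, where TMM is a normalisation that sets the typical gene equal between libraries. The cells came from C57BL6 mice and had been gated in a cell sorter for lack of EpCAM, CD45 and CD31, which mark epithelial, haematopoietic and endothelial cells. The groups were sham at day 7 (3 libraries), PNX at day 7 (3), sham at day 14 (2) and PNX at day 14 (3). All were of the same strain, no genotype or transgene is named, and the age and sex of the mice and the lobe taken are not given in the sources used here. No label states that replicates were separate animals, so each p-value reflects only library-to-library spread, which may be technical.

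Chemokines bind membrane receptors, most of them on leukocytes, and a few scavenging receptors that take chemokine up without moving the cell. Some members, such as Cxcl12, Cxcl14 and Ccl19, are made steadily by stromal cells, while others, such as Cxcl1, Cxcl2, Ccl2 and Ccl7, are induced within hours by inflammatory signals that act through NF-κB. Another set, Cxcl9, Cxcl10 and Cxcl11, is induced by interferons. Macrophages, neutrophils, T cells, dendritic cells and platelets make chemokines of their own, so the members were split by the cell type known for each: 10 typical of fibroblasts, 16 typical of leukocytes or platelets, 3 induced by interferon, and 12 typical of epithelial or endothelial cells. The split follows general knowledge, and many members are made by more than 1 cell type.

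The 8 members below the level were Ccl1, Xcl1, Ccl21a and Ccl21b, which had no count in any library, and Ccl20, Ccl26, Ccl27b and Cxcl3, which had few. With 0 counts the level in a library could still be up to that of 3 counts, which was 1.01 CPM in the shallowest library (sham day 14 replicate 1). All 10 members typical of fibroblasts were reported, 13 of 16 typical of leukocytes, 3 of 3 induced by interferon and 7 of 12 typical of epithelial or endothelial cells. Cxcl11 was too low for the test across all genes, which leaves 32 members with a test. Total counts were 4082935 to 8362119 in sham at day 7, 2963341 to 7614122 in PNX at day 7, 2539628 to 9008592 in sham at day 14, with 4733716 to 7895688 after PNX at day 14.

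The cells carried the fibroblast marker Pdgfra, a receptor of platelet-derived growth factor, at 704 to 1161 CPM in sham at day 7, 267 to 701 in PNX at day 7, 155 to 1192 in sham at day 14, and after PNX at day 14 382 to 521. Ptprc, which encodes CD45, ranged from 5.26 CPM (PNX day 7 replicate 2) to 51.1 CPM (sham day 14 replicate 2), Pecam1 (CD31) from 11 CPM (PNX day 7 replicate 3) to 247 CPM (PNX day 7 replicate 1), and Epcam from 0.580 CPM (sham day 7 replicate 3) to 13.4 CPM (sham day 14 replicate 1). Reads of these 3 genes, which mark cell types that the sort removes, were therefore detected in all libraries. Whether the lowest of these levels are RNA of such cells or background reads was not tested. In such bulk samples more cells of a type and more RNA per cell cannot be told apart.

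The 33 reported members summed to 2420.3 to 3629.9 CPM in sham at day 7, 2594 to 4506 CPM in PNX at day 7, 5429 to 6071 CPM in sham at day 14 and 4438 to 6490.0 CPM in PNX at day 14. Most of this came from the 10 members typical of fibroblasts, whose sums were 2024 to 3488, 2045 to 4212, 4882 to 5268 and 3979 to 5878 CPM in the same order. Sham at day 7 had the lowest group mean of the 4 groups for 19 of the 33 members, and sham at day 14 had the highest for 20.

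Levels of different genes were compared per kilobase of exon, with the caveat that the length used is the union of all annotated exons and is long for genes with many isoforms, such as Cxcl12 at 8176 bases. By this measure Ccl7 was the most abundant member at a mean of 1428 CPM per kilobase over the 11 libraries, followed by Ccl2 at 386, Ccl11 at 312, Ccl19 at 311 and Cxcl1 at 307. Ccl7 and Ccl2 encode the monocyte attractants MCP-3 and MCP-1, Ccl11 encodes eotaxin, Ccl19 a ligand of Ccr7 that guides dendritic and T cells, and Cxcl1 an attractant of neutrophils. In sham at day 7 the levels of Ccl11, Ccl19 and Cxcl1 lay within their spread of each other, at 322 ± 191, 245 ± 69.8 and 135 ± 63.1 CPM per kilobase (mean ± SD, n = 3). Cxcl14 was at 315 ± 67.1 in that group. In PNX at day 14 the order began with Ccl7 at 2175 ± 687, Ccl2 at 635 ± 265 and Cxcl1 at 419.6 ± 155 CPM per kilobase (mean ± SD, n = 3). Cxcl13 came next at 395 ± 376, a wide spread, then Ccl11 at 319 ± 72.5 and Ccl19 at 318 ± 67.9. Over all libraries Cxcl13 and Cxcl14 came after Cxcl1, at means of 233 and 233, while the highest member outside the fibroblast set was Cxcl16 at 33.1. Ccl21c was left out of this order because the annotation used gives no exon length for it.

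Many members lie side by side in the genome. In mm10, Ccl2 (chr11:82035571-82037453), Ccl7 (chr11:82045712-82047525), Ccl11 (chr11:82057823-82062955), Ccl12 (chr11:82101845-82103400) and Ccl8 (chr11:82115185-82116799) follow each other on chromosome 11. Further along the same chromosome lie Ccl5 (chr11:83525778-83530518), Ccl9 (chr11:83572919-83578636), Ccl6 (chr11:83587882-83593087), Ccl3 (chr11:83647844-83649355) and Ccl4 (chr11:83662584-83664683). Chromosome 5 holds Cxcl5 (chr5:90759360-90761624), Ppbp (chr5:90768518-90770063), Pf4 (chr5:90772435-90773383), Cxcl1 (chr5:90891241-90893115) and Cxcl2 (chr5:90903871-90905938) in 1 group, Cxcl9 (chr5:92321347-92328079) and Cxcl10 (chr5:92346638-92348889) in another, and Cxcl13 (chr5:95956951-95961068) apart. Cxcl14 lies alone on chromosome 13 (chr13:56288643-56296551) and Cxcl12 on chromosome 6 (chr6:117168535-117181367).

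Cxcl14 was lower after PNX on both days, and it was the 1 member that passed the test between PNX and sham. Cxcl14 is a chemokine made steadily by stromal and epithelial cells, and its main receptor is unsettled. At day 7 its level was 441, 681 and 603 CPM in sham and 293, 284 and 221 CPM in PNX. At day 14 it was 515 and 836 CPM in sham and 291, 242 and 267 CPM in PNX. Every sham library lay above every PNX library, on each day and over both days together. The log2 fold change was -1.11 ± 0.33 (standard error) at day 7 and -1.34 ± 0.36 at day 14, and its mean over both days was -1.23 ± 0.24, with an adjusted p of 0.0473 in edgeR's quasi-likelihood test with Benjamini-Hochberg adjustment over 16011 genes. In that mean 31 of 16011 genes passed (0.194%), and 1 of 32 chemokines. Each day alone did not pass, with adjusted p of 0.151 at day 7 and 0.271 at day 14.

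The Cxcl14 call was close to the threshold. With 1 library at a time left out it held only in the absence of sham day 7 replicate 1 or of sham day 14 replicate 1 (adjusted p 0.0199 and 0.00829). It was lost in the absence of sham day 7 replicate 2 (0.0757) or 3 (0.0901), of PNX day 7 replicate 1 (0.138), 2 (0.0743) or 3 (0.115), of sham day 14 replicate 2 (0.117), and of PNX day 14 replicate 1 (0.0594), 2 (0.191) or 3 (0.189), with log2 fold changes between -1.39 and -0.986 in all 11. It was also lost with no filter on low counts (adjusted p 0.0529) and with limma voom and sample weights (0.166), while DESeq2 gave 6.70e-06.

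Cxcl1, Cxcl2 and Cxcl10 are known NF-κB or interferon targets, and none of them passed the edgeR test in any comparison. Their promoter sequences are shown beside that of Cxcl14, the 1 member called between PNX and sham, where it was lower after PNX. Each is the 250 bases before the RefSeq start in GRCm38.p6, written 5′ to 3′ on the gene's strand, with capitals at matches on either strand to the κB motif, the interferon-γ activation site TTCNNNGAA and the interferon response element (TTTC, any 2 bases, TTTC).
Cxcl14 (chr13:56296552-56296801, minus strand): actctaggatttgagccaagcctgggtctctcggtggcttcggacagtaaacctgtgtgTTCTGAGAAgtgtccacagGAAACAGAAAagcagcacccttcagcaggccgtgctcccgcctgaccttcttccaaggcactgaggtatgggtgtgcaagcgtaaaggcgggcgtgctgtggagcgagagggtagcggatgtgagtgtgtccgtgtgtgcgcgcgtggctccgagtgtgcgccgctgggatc
Cxcl1 (chr5:90890995-90891244, plus strand): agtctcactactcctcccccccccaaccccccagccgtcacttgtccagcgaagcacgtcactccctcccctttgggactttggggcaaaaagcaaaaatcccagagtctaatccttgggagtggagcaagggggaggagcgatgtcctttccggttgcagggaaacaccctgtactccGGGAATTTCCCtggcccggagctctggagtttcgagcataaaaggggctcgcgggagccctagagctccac
Cxcl2 (chr5:90903649-90903898, plus strand): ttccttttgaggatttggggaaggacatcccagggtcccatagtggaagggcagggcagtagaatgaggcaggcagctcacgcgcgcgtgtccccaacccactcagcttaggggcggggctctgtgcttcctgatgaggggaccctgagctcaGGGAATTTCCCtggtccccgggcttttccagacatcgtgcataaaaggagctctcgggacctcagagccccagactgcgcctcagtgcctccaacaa
Cxcl10 (chr5:92348890-92349139, minus strand): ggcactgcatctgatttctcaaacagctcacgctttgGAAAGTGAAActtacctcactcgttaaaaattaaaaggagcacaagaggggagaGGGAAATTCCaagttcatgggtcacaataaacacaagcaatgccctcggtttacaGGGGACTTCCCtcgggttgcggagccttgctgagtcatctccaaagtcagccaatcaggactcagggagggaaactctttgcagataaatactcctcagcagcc

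The Cxcl1 and Cxcl2 promoters hold the same 11 bases in capitals, GGGAATTTCCC, in which 2 κB matches overlap, starting 71 bases before the start of Cxcl1 and 97 bases before that of Cxcl2. Cxcl10 has 3 κB matches, starting 159, 104 and 103 bases before the start, of which the last 2 overlap, and 1 interferon response element at 213 bases. Cxcl14 has no κB match in this window, and has an interferon-γ activation site at 191 bases and an interferon response element at 172 bases before the start. Among 22 reported members with a RefSeq promoter, 4 (18.2%) held a κB match, against 7.01% of 27025 promoters of the same length. These 4 were Cxcl1, Cxcl2, Cxcl10 and Ccl9. The interferon-γ site was in 2 of 22 (9.09%, against 7.18% of all), Ccl17 and Cxcl14. The interferon response element was in 3 of 22 (13.6%, against 3.04%), Ccl19, Cxcl10 and Cxcl14. The Cxcl9 promoter had no match to any of these motifs in the window. A match of letters is a description of the sequence and does not show that a factor binds there.

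The induced attractants of monocytes and neutrophils had their lowest levels in sham at day 7. Ccl7 was at 345, 192 and 765 CPM in sham at day 7, 1094, 549 and 1108 CPM in PNX at day 7, 1972 and 1334 CPM in sham at day 14 and 1292, 2355 and 1578 CPM in PNX at day 14. Ccl2 was at 144, 101 and 343 CPM, 466, 219.8 and 496 CPM, 402 and 488 CPM and 492, 1063 and 610.4 CPM in the same order. Both genes had their lowest level in sham day 7 replicate 2 and their highest in PNX day 14 replicate 2, and sham and PNX overlapped at day 7. For Ccl7 the log2 fold change of PNX against sham was 1.08 ± 0.47 at day 7 (edgeR adjusted p 0.339) and 0.08 ± 0.52 at day 14 (0.98). For Ccl2 it was 1.01 ± 0.46 at day 7 (edgeR adjusted p 0.369) and 0.70 ± 0.52 at day 14 (0.819), and its mean over both days was 0.85 ± 0.35 (0.393). At day 14 all PNX libraries were above both sham libraries for Ccl2, the nearest being 492 against 488 CPM. Between the sham days Ccl7 differed by 1.93 ± 0.51 (0.116) and Ccl2 by 1.18 ± 0.50 (0.275) in log2, which did not pass. The Ccl2 row overlaps Gm17268 on the opposite strand, and since the strand setting of the counting is not given in the sources used here, reads of overlapping genes cannot be told apart.

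Cxcl1 was also lowest in sham at day 7. Its level was 216, 157 and 385 CPM in sham at day 7, 604, 333 and 509 CPM in PNX at day 7, 952 and 819.9 CPM in sham at day 14 and 627, 1123 and 610.2 CPM in PNX at day 14. In log2 terms the fold change of PNX against sham was 0.93 ± 0.40 at day 7 and -0.17 ± 0.44 at day 14 (edgeR adjusted p 0.332 and 0.946). Day 14 against day 7 after sham gave 1.81 ± 0.44 (adjusted p 0.0975), which passed without sham day 14 replicate 2 (0.0461) and with DESeq2 (0.00247). Cxcl2, the close relative of Cxcl1 that is better known from macrophages, was at 2.11, 6.87 and 12.6 CPM in sham at day 7, 30.6, 26.9 and 13 CPM in PNX at day 7, 53.7 and 25.5 CPM in sham at day 14 and 24.8, 139 and 45.9 CPM in PNX at day 14. Its 3 PNX libraries of day 7 lay above the 3 sham libraries, the nearest being 13 against 12.6 CPM, and the log2 fold change was 1.70 ± 0.71 (edgeR adjusted p 0.344). Cxcl2 shares 7.59% of its 31-base stretches with Cxcl3, which had 23 counts in all.

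Cxcl5, a neutrophil attractant, had the largest log2 fold change of the tested fibroblast-typical members at day 7. It was at 6.75, 4.94 and 2.75 CPM in sham and 21.1, 10.8 and 88 CPM in PNX at day 7, so that the groups did not overlap and PNX replicate 3 stood well above the rest. At day 14 it was at 11.4 and 7.32 CPM in sham and 8.77, 17.4 and 13 CPM in PNX, which overlap. The fitted log2 fold change was 3.06 ± 0.65 at day 7 (edgeR adjusted p 0.0783) and 0.51 ± 0.70 at day 14 (0.894), and the difference between the 2 days was -2.55 ± 0.92 (0.448). The day 7 value was 1.69 without PNX day 7 replicate 3 (adjusted p 0.238), and it passed with sham day 7 replicate 1 (3.40, 0.0489) or PNX day 7 replicate 2 (3.48, 0.0131) left out, with no filter on low counts (0.0421) and with DESeq2 (0.000307).

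Cxcl13, which attracts B cells, was high in the libraries numbered 3 of both PNX groups. Its level was 167, 78 and 80.9 CPM in sham at day 7, 267, 64.2 and 751 CPM in PNX at day 7, 73.2 and 103 CPM in sham at day 14 and 268, 147 and 948 CPM in PNX at day 14. At day 7 the lowest value of all was in a PNX library, and at day 14 the 3 PNX libraries lay above both sham libraries. As log2, the fold change was 1.73 ± 0.88 at day 7 and 2.36 ± 1.05 at day 14, and averaged over the days 2.04 ± 0.69, with edgeR adjusted p of 0.471, 0.728 and 0.317.

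Ccl11, the eosinophil attractant eotaxin, was at 466, 109 and 469 CPM in sham at day 7, 189, 109 and 261 CPM in PNX at day 7, 522 and 555 CPM in sham at day 14 and 425, 269 and 343 CPM in PNX at day 14. Replicate 2 of both groups was the lowest at day 7, and both sham libraries were above all PNX libraries at day 14. The mean log2 fold change over both days was -0.77 ± 0.34 (edgeR adjusted p 0.438). Ccl8, a relative of Ccl2, was at 12.8, 18.7 and 13.6 CPM in sham and 44.5, 17.7 and 22.4 CPM in PNX at day 7, and at 53.4 and 40.4 CPM in sham and 53.2, 24.6 and 27.6 CPM in PNX at day 14. The gene's log2 fold change was 0.92 ± 0.39 at day 7 and -0.41 ± 0.43 at day 14 (edgeR adjusted p 0.334 and 0.862), and sham at day 14 exceeded sham at day 7 by 1.64 ± 0.43 (0.116).

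The stromal homing chemokines Ccl19 and Cxcl12 had no unadjusted p under 0.05 in any of the 6 comparisons. Ccl19 was at 179, 282 and 177 CPM in sham at day 7, 379, 153 and 235 CPM in PNX at day 7, 374 and 363 CPM in sham at day 14 and 219, 336 and 272 CPM in PNX at day 14, with log2 fold changes of 0.27 ± 0.36 and -0.42 ± 0.40 on the 2 days. Ccl19 shares 58.8% of its 31-base stretches with the gene copy Gm2564 and overlaps 4930578G10Rik on the opposite strand, so its counts are uncertain. Cxcl12, the ligand of Cxcr4, was at 399 to 649.7 CPM in sham at day 7, 305 to 521 in PNX at day 7, 336 to 393 in sham at day 14, and after PNX at day 14 251 to 303. For both genes PNX lay below sham without overlap at day 14. Between the days, Cxcl12 was lower at day 14 without overlap in both sham and PNX, and Ccl19 was higher without overlap in sham.

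**Figure D1:**
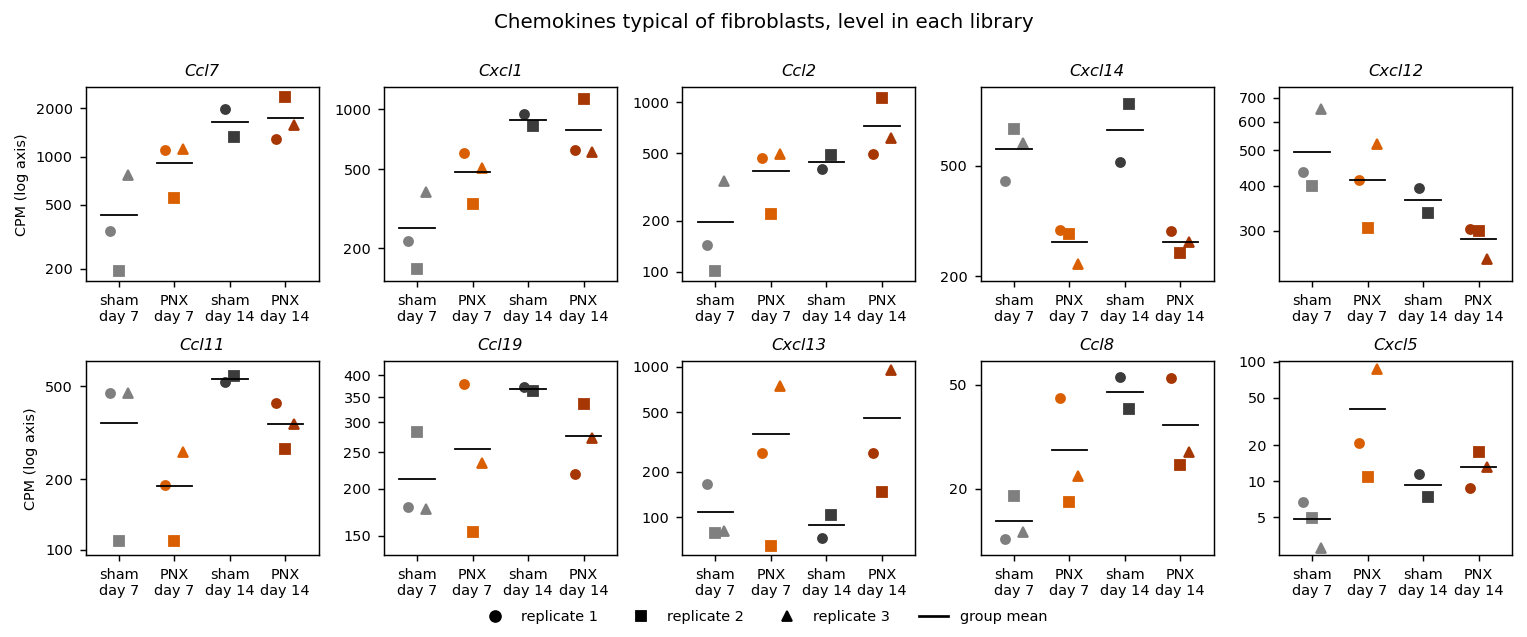
Level of the 10 members typical of fibroblasts in each of 11 libraries, in CPM on a log axis, with 1 point per library, a marker shape per replicate number and a black line at each group mean. Cxcl14 lies below sham in every PNX library, Ccl7, Cxcl1 and Ccl2 are lowest in sham at day 7, and Cxcl5 and Cxcl13 have their highest values in PNX libraries numbered 3 at day 7 and day 14 respectively.

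No member typical of leukocytes passed the test between PNX and sham. Of the 13 reported, 10 had their highest group mean in sham at day 14 and 9 their lowest in sham at day 7. All 16 listed members of this set, with the 3 below the reporting level, summed to 93 to 145 CPM in sham at day 7, 204 to 283 CPM in PNX at day 7, 419 to 508 CPM in sham at day 14 and 209 to 342 CPM in PNX at day 14. The sums of sham and PNX did not overlap on either day, and lay in opposite orders. At day 7 Cxcl16 gave more than any other gene to these sums, with 68.5 to 78.2 CPM in sham and 90.3 to 137 CPM in PNX. The sums without it were not compared.

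Ccl6, a myeloid CC chemokine of rodents, was the 1 member that passed the test between the sham days, and it was higher at day 14. It was at 9.56, 18.7 and 4.20 CPM in sham at day 7 and 166 and 140.4 CPM in sham at day 14, a log2 fold change of 3.84 ± 0.48 with an edgeR adjusted p of 0.00434. In that comparison 3 of 16011 genes passed (0.0187%) and 1 of 32 chemokines. PNX libraries had 32.6, 18 and 19.7 CPM at day 7 and 43.1, 30.6 and 44.7 CPM at day 14, all below both sham libraries of day 14. The log2 fold change of PNX against sham was 1.13 ± 0.43 at day 7 and -1.96 ± 0.45 at day 14 (adjusted p 0.254 and 0.137), and the difference between the days was -3.09 ± 0.62 (0.168). The call between sham days held without each single library (adjusted p 0.000443 to 0.026), and was lost with total counts in place of TMM (0.0631), with limma voom (0.0645) and with only the 2 sham groups in the fit (0.0532). Ccl6 overlaps the transcript E230016K23Rik on the opposite strand.

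Ccl9, a neighbour and relative of Ccl6, was at 1.12, 2.58 and 0.435 CPM in sham at day 7, 5.95, 7.48 and 9.64 CPM in PNX at day 7, 23.9 and 10.9 CPM in sham at day 14 and 5.41, 4.39 and 0.899 CPM in PNX at day 14. PNX was above sham without overlap at day 7 and below it without overlap at day 14. The log2 fold changes were 2.52 ± 0.68 and -2.24 ± 0.68 (edgeR adjusted p 0.12 and 0.41), with a difference between days of -4.77 ± 0.96 (0.168). Ccl5, made by T and NK cells among others, was at 1.55, 5.37 and 1.45 CPM in sham at day 7, 3.74, 0.831 and 2.83 CPM in PNX at day 7, 25.5 and 22.4 CPM in sham at day 14 and 5.22, 7.53 and 7.64 CPM in PNX at day 14. For Ccl5 sham at day 14 exceeded sham at day 7 by 3.14 ± 0.61 in log2 (edgeR adjusted p 0.0935), and PNX against sham at day 14 gave -1.81 ± 0.59 (0.478).

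Ccl3 and Ccl4, the macrophage inflammatory proteins, were uneven between the libraries of day 7. Ccl3 was at 0.141, 3.65 and 0.290 CPM in sham and 11.7, 1.66 and 0.899 CPM in PNX at day 7, and at 14.4 and 20.2 CPM in sham and 0.746, 1.57 and 3.37 CPM in PNX at day 14. Ccl4 was at 0.562, 8.38 and 0.290 CPM in sham and 22.8, 3.88 and 0.514 CPM in PNX at day 7, and at 33.6 and 32.2 CPM in sham and 1.12, 0.785 and 2.92 CPM in PNX at day 14. In both genes sham replicate 2 and PNX replicate 1 stood highest at day 7, and both sham libraries of day 14 stood above every other library. In log2 terms the fold change at day 14 was -3.21 ± 1.12 for Ccl3 and -4.38 ± 1.59 for Ccl4 (edgeR adjusted p 0.585 and 0.661), and both passed when only the 2 groups of day 14 were fitted (0.0165 and 0.000218).

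Ccl17 and Ccl22, ligands of Ccr4 made by dendritic cells, and Ccl12, a monocyte attractant, were low outside sham at day 14. Ccl17 was at 14.4 and 5.98 CPM in sham at day 14, against 0.373, 0.942 and 1.35 CPM in PNX at day 14, 0.562, 0.644 and 0 CPM in sham at day 7 and 0.340, 0.554 and 0 CPM in PNX at day 7. Its log2 fold change was -3.49 ± 1.10 for PNX against sham at day 14 (edgeR adjusted p 0.449) and 4.63 ± 1.17 between the sham days (0.109). Ccl22 was at 3.70 and 5.25 CPM in sham and 1.49, 2.82 and 0.450 CPM in PNX at day 14, and at 0.562, 1.29 and 0.435 CPM in sham and 1.19, 1.66 and 0.514 CPM in PNX at day 7. Ccl12 was at 6.05 and 5.98 CPM in sham and 0.560, 0 and 1.12 CPM in PNX at day 14, and at 0, 1.93 and 0.435 CPM in sham and 1.02, 1.11 and 0.642 CPM in PNX at day 7. For both genes the 2 sham libraries of day 14 were the highest of all 11, with log2 fold changes at day 14 of -1.47 ± 0.97 and -3.43 ± 1.29 that did not pass (edgeR adjusted p 0.799 and 0.601).

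The platelet chemokines Pf4 and Ppbp were higher after PNX at day 7 in most libraries. Pf4 (platelet factor 4) was at 1.12, 3.87 and 0.290 CPM in sham and 10.03, 20.5 and 3.21 CPM in PNX at day 7, and at 31.9 and 9.76 CPM in sham and 0.560, 9.42 and 0.899 CPM in PNX at day 14. Ppbp, the precursor of a neutrophil attractant stored in platelet granules, was at 7.03, 12 and 3.33 CPM in sham and 39.3, 33.2 and 13.4 CPM in PNX at day 7, and at 29.6 and 32.4 CPM in sham and 6.53, 23.9 and 27.6 CPM in PNX at day 14. The day 7 groups overlapped for Pf4 and not for Ppbp. The log2 fold changes at day 7 were 2.72 ± 1.17 and 1.95 ± 0.55 (edgeR adjusted p 0.369 and 0.136), and at day 14 -2.46 ± 1.18 and -0.68 ± 0.57 (0.747 and 0.831). Of 9 platelet and megakaryocyte markers, summed levels were 25.2 to 56.3 CPM in sham at day 7, 26.3 to 98.3 CPM in PNX at day 7, 40.1 to 68.9 CPM in sham at day 14 and 24.9 to 36.3 CPM in PNX at day 14. The defining marker Itga2b (CD41) was above 0 in every library, at 2.95 to 12.5 CPM in sham and 6.30 to 23.8 CPM in PNX at day 7, and its part in the Pf4 and Ppbp levels was not tested.

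Cxcl16, a membrane-bound ligand of Cxcr6, varied little. It was at 68.5, 78.2 and 70.5 CPM in sham at day 7, 123, 90.3 and 137 CPM in PNX at day 7, 99.8 and 107 CPM in sham at day 14 and 119, 121 and 84.1 CPM in PNX at day 14. PNX lay above sham without overlap at day 7, with a log2 fold change of 0.69 ± 0.30 (edgeR adjusted p 0.339) and 0.06 ± 0.33 at day 14 (0.974). It overlaps Zmynd15 on the opposite strand. Ccl24 stayed between 0 and 2.31 CPM with no p under 0.05.

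Neither tested interferon-induced member passed between PNX and sham, and both had log2 fold changes below 0 at day 14. Cxcl9, a ligand of Cxcr3 induced by interferon-γ, was at 3.51, 11.6 and 2.32 CPM in sham and 7.65, 4.43 and 4.50 CPM in PNX at day 7. At day 14 it was at 17.1 and 22.7 CPM in sham and 1.87, 1.88 and 2.02 CPM in PNX, the latter 3 being the lowest of all 11 libraries. The fitted log2 fold change was -0.04 ± 0.54 at day 7 and -3.36 ± 0.62 at day 14 (edgeR adjusted p 0.982 and 0.0666), with a difference of -3.32 ± 0.82 (0.283). The day 14 value passed without sham day 7 replicate 2 (adjusted p 0.014) or 3 (0.0329), with no filter on low counts (0.0057), with only the 2 groups of day 14 (0.00293) and with DESeq2 (0.000455), and it did not with limma voom (0.344).

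Cxcl10, the second ligand of Cxcr3, was at 12.8, 27.7 and 12.6 CPM in sham and 53.2, 70.6 and 22.7 CPM in PNX at day 7, and at 62.8 and 50.5 CPM in sham and 22.2, 17.6 and 34.4 CPM in PNX at day 14. As log2, the fold change was 1.47 ± 0.43 at day 7 and -1.20 ± 0.46 at day 14 (edgeR adjusted p 0.147 and 0.614), and the difference between them -2.66 ± 0.63 (0.281). Cxcl11 had at most 7 counts in any library and no test. Cxcl10 and Cxcl11 overlap Art3 on the opposite strand.

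**Figure D2:**
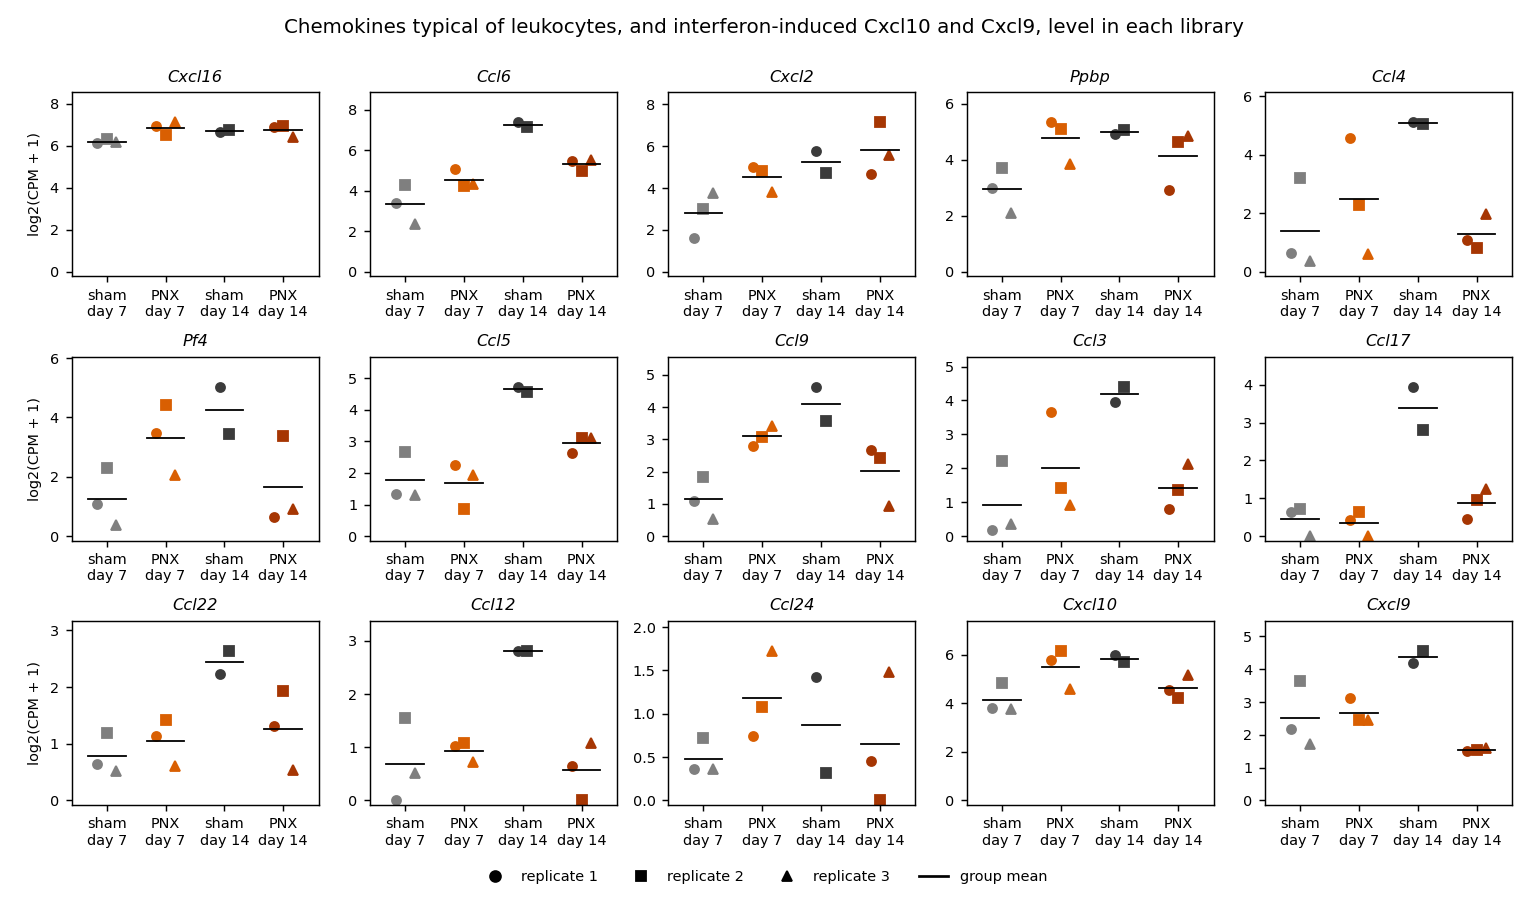
Level of the 13 members typical of leukocytes or platelets and of Cxcl10 and Cxcl9 in each of 11 libraries, as log2(CPM + 1), with a marker shape per replicate number and a black line at the mean of the plotted values. Ccl6, Ccl5, Ccl3, Ccl4, Ccl17, Ccl22, Ccl12 and Cxcl9 are highest in the 2 sham libraries of day 14 (14.4 and 5.98 CPM for Ccl17), and Ccl9, Ppbp and Cxcl2 lie above sham in all 3 PNX libraries of day 7.

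Over the whole family 24 of 32 members lay above sham at day 7, and 24 lay below it at day 14. No member passed the adjusted threshold in edgeR at day 7, where 6 of 16011 genes did (0.0375%), or at day 14, where 1 did (0.00625%). At day 7 DESeq2 called 4 members higher, against 1.02% of all genes to which it gave an adjusted p, and 1 lower, against 2.49%. At day 14 it called 1 higher (0.464% of all genes) and 3 lower (0.304%). With limma voom 3 members were higher (1.56% of all genes) and 1 lower (3.6%) at day 7, and at day 14 no gene passed (0.0%). At an unadjusted p under 0.05, 12 of 32 members were higher after PNX at day 7, against 4.66% of all genes, and 1 (Cxcl14) was lower, against 8.07%. At day 14 the counts were 2 higher (Ccl21c and Cxcl13), against 3.19% of all genes, and 10 lower, against 3.63%. The 10 were Ccl3, Ccl4, Ccl5, Ccl6, Ccl9, Ccl12, Ccl17, Cxcl9, Cxcl10 and Cxcl14.

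For the 32 tested members the median log2 fold change was 0.92 at day 7, with 24 above 0 and 8 below, beside 0.03 over all genes. At day 14 it was -0.66, with 8 above 0 and 24 below, beside -0.07 over all genes. The members typical of fibroblasts had medians of 0.92 and -0.26 and those typical of leukocytes 1.64 and -1.96. Members share libraries and, in part, cell types, so these are descriptions and not tests. Ccl21c lies above the day 14 median both at its fitted value and at the lower bound given below. The day 7 median was 0.523 without PNX day 7 replicate 1. It was 0.795 without sham day 7 replicate 3, a library that stood apart in the response genes Zfp36 and Csf1. The day 14 median was -0.211 when sham day 14 replicate 1 was left out, -1.03 when replicate 2 of that group was, and -1.03 when PNX day 14 replicate 3 was. It was -0.19 without 3 libraries with the highest share of counts in olfactory and vomeronasal receptor genes. These were replicate 2 of sham and of PNX at day 7 and replicate 1 of sham at day 14, with 635 to 1606 CPM of total counts in such genes against 89.9 to 587 CPM in the other libraries.

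Groups that did not overlap were found for 7 members with PNX above sham at day 7 (9.95% of all genes), and for 1, Cxcl14, with PNX below (9.57%). The 7 were Ccl9, Ccl24, Ccl25, Cxcl2, Cxcl5, Cxcl16 and Ppbp. Of these, Ccl24 had only 50 counts over all libraries, and Ccl25 overlaps Elavl1 on the opposite strand. At day 14 groups without overlap were found for 3 members with PNX above sham (9.57%), Ccl2, Cxcl13 and Ccl21c, and for 16 with PNX below (8.28%). The 16 were 10 members typical of leukocytes or induced by interferon (Ccl3, Ccl4, Ccl5, Ccl6, Ccl9, Ccl12, Ccl17, Ccl22, Cxcl9 and Cxcl10), the platelet members Pf4 and Ppbp, and the fibroblast members Ccl11, Ccl19, Cxcl12 and Cxcl14.

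The difference of the PNX effect between the days was tested directly. No gene of 16011 passed (0.0%), and no chemokine did. DESeq2 called 1 chemokine higher (0.528% of all genes with an adjusted p) and 2 lower (0.571%), and limma voom called no gene (0.0%). At an unadjusted p under 0.05, 11 of 32 members had a lower effect at day 14 than at day 7 (4.6% of all genes) and 1, Ccl21c, a higher one (4.16%). The 11 were Ccl3, Ccl4, Ccl6, Ccl8, Ccl9, Ccl12, Cxcl5, Cxcl9, Cxcl10, Pf4 and Ppbp. The Ccl21c counts are split between copies, and with the Ccl21 rows summed this difference was 0.29 ± 1.70 (edgeR adjusted p 0.963). In the mean of both days 5 members were higher at an unadjusted p under 0.05 (3.92% of all genes), namely Ccl2, Ccl21c, Cxcl2, Cxcl5 and Cxcl13. Another 5 were lower (6.37%), namely Ccl5, Ccl11, Ccl17, Cxcl9 and Cxcl14.

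Levels were also compared between the days within each operation. Between the sham groups 18 of 32 members were higher at day 14 at an unadjusted p under 0.05 (6.32% of all genes) and 1, Ccl21c, lower (7.94%). The Ccl21c counts are split between copies, as described below. With the Ccl21 rows summed, the log2 difference between the sham days was -0.66 ± 1.29 (edgeR adjusted p 0.869). The median of the 32 log2 differences was 1.59, with 28 above 0, and all 13 members typical of leukocytes were above 0 with a median of 3.14. Between the PNX groups the median was -0.05, with 16 above 0 and 16 below. No gene passed there in edgeR (0.0%), and no chemokine did with DESeq2 (0.408% of all genes) or limma voom (0.693%). Unadjusted, Ccl5 and Cxcl2 were higher at day 14 (3.72% of all genes) and Cxcl5, Cxcl9 and Cxcl10 lower (3.13%). The comparisons at day 14, between sham days and between PNX effects all use the same 2 sham libraries of day 14.

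**Figure D3:**
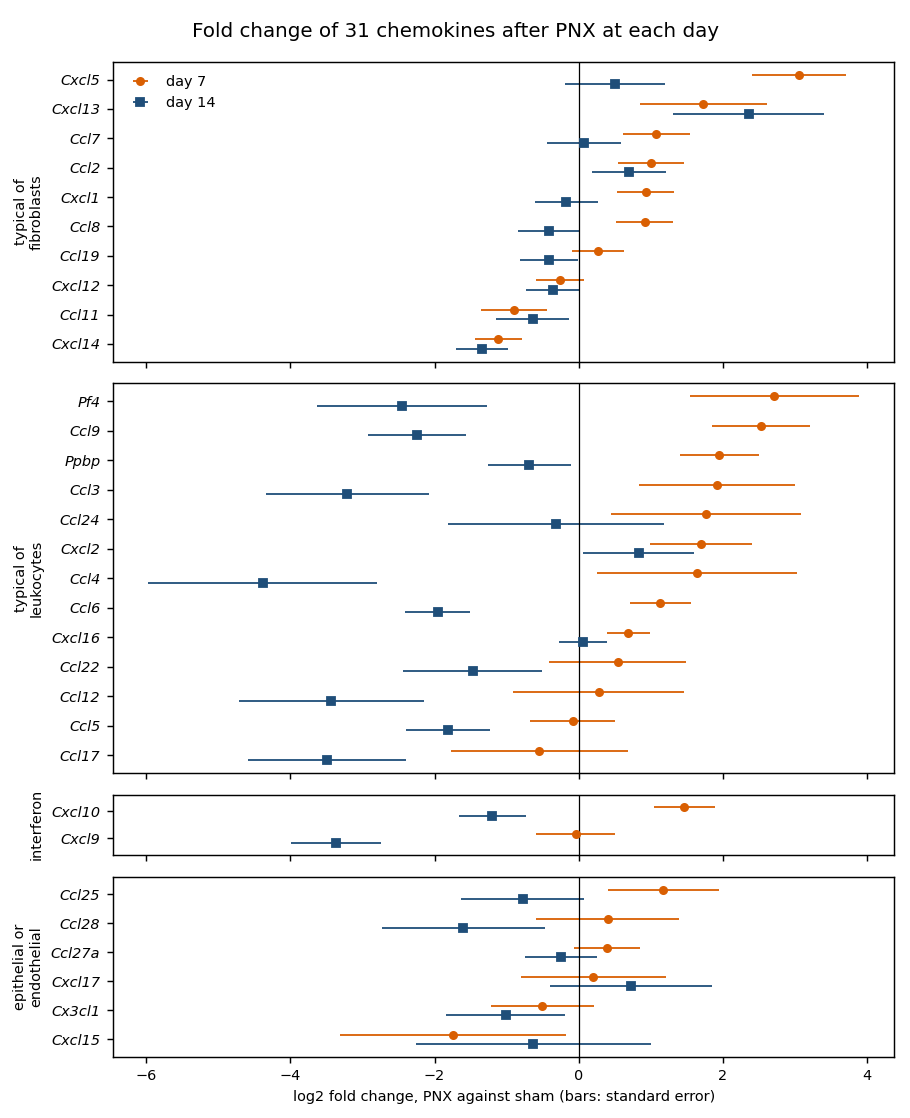
Log2 fold change of PNX against sham for 31 tested members, at day 7 (circles) and day 14 (squares), with bars of 1 standard error, grouped by the cell type known for each member. Cxcl14 lies to the left of 0 on both days (-1.11 and -1.34), while most members typical of leukocytes lie to the right at day 7 and to the left at day 14. Ccl21c is left out because its counts are split between copies.

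Levels of leukocyte markers stand beside these members. Of 15 haematopoietic markers, such as Ptprc and Laptm5, 14 were lower after PNX at day 14 and 10 of them at an unadjusted p under 0.05, as were 3.63% of all genes. At day 7, 11 of the 15 were lower after PNX and 4 higher. Of these, 3 lower and 1 higher had an unadjusted p under 0.05 (8.07% and 4.66% of all genes). The 15 markers summed to 188 to 300.1 CPM in sham at day 7, 151 to 541 CPM in PNX at day 7, 469 to 559 CPM in sham at day 14 and 282 to 474 CPM in PNX at day 14. Arhgdib gave more than any other gene to these sums in PNX at day 14 and was the 1 of the 15 higher after PNX there, at 85.7 to 152 CPM in sham and 172 to 339 CPM in PNX. The other 14 markers summed to 53.7 to 153 CPM in sham and 65.5 to 182 CPM in PNX at day 7, and to 383 to 407 CPM in sham and 110 to 147 CPM in PNX at day 14, so that without Arhgdib the groups of day 14 did not overlap. Of 15 macrophage and monocyte markers all 15 were lower at day 14 after PNX, 7 at an unadjusted p under 0.05 (3.63% of all genes), and their sums were 76.8 to 757, 156 to 416, 832 to 884 and 341 to 808 CPM in the same order of groups. The B and plasma cell markers stood further apart, with 854 to 974 CPM in sham and 29.1 to 182 CPM in PNX at day 14, against 7.68 to 296 CPM and 115 to 411 CPM at day 7. All 6 tested B and plasma cell markers were lower after PNX at day 14, 3 of them at an unadjusted p under 0.05 (3.63% of all genes). At day 7, 3 of these were higher and 3 lower, as were 9 and 6 of the 15 macrophage and monocyte markers.

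The smaller marker lists gave sums of the same kind. At day 14 dendritic cell markers summed to 47.4 to 60.4 CPM in sham and 18.7 to 28.2 CPM in PNX, with 16 to 34.1 and 14.1 to 26.6 CPM at day 7, and 6 of 7 tested were lower after PNX at day 14. At day 7, 3 of the 7 were higher and 4 lower. T and NK cell markers summed to 32.9 to 47.4 CPM in sham and 6.16 to 15.5 CPM in PNX at day 14, and to 4.22 to 74.2 and 5.91 to 11.6 CPM at day 7. All 7 tested were lower after PNX on both days. Neutrophil markers summed to 74.5 to 93.1 and 50.2 to 115 CPM at day 14 and to 8.12 to 191 and 71.2 to 256 CPM at day 7, with 7 of 7 tested higher after PNX at day 7. At day 14, 6 of the 7 were lower. The defining markers Ptprc, Csf1r and Csf3r were above 0 in every library, while Cd3e was at 0 in PNX day 14 replicate 2. The part of leukocyte RNA in the chemokine levels was not tested.

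**Figure D4:**
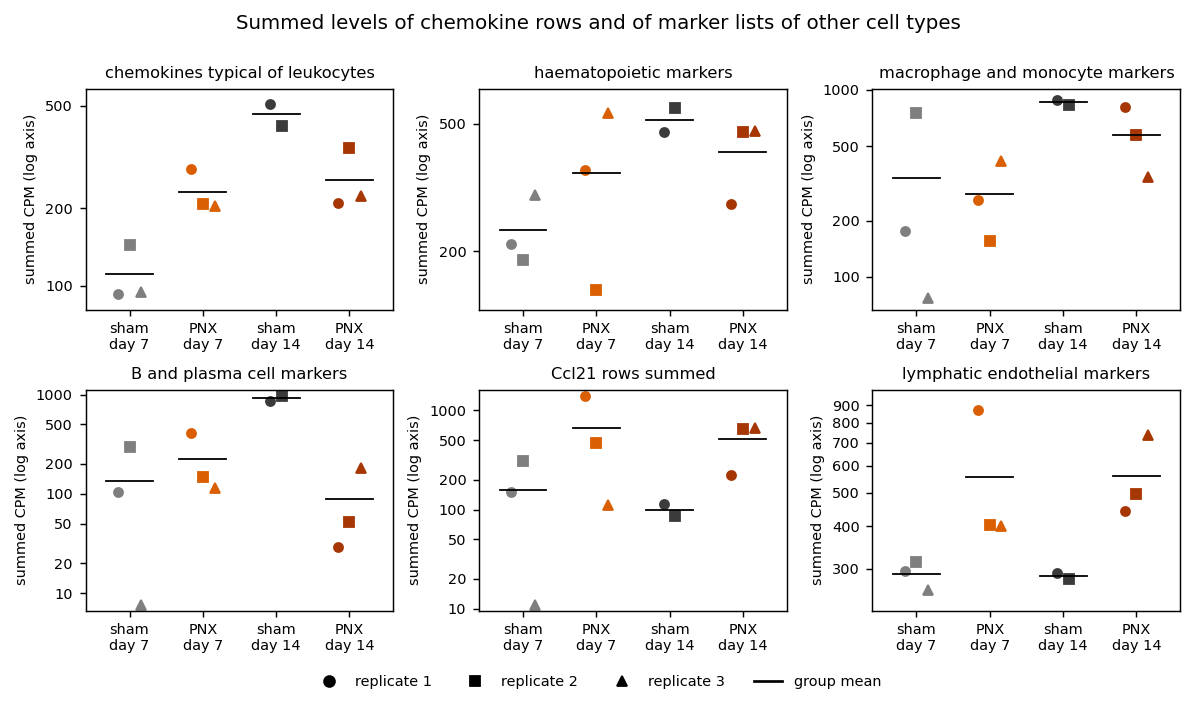
Summed CPM on a log axis in each of 11 libraries for the 16 chemokines typical of leukocytes, for marker lists of haematopoietic, macrophage and monocyte, B and plasma, and lymphatic endothelial cells, and for the Ccl21 rows, with a marker shape per replicate number and a black line at each group mean. The chemokine sum is highest in sham at day 14 (419 to 508 CPM), where the B and plasma cell sum is also highest (854 to 974 CPM), and the Ccl21 sum is lowest in sham day 7 replicate 3 at 11 CPM.

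None of the 7 reported members typical of epithelial or endothelial cells passed the test between PNX and sham. Ccl27a, a skin-homing chemokine, was at 7.59, 7.30 and 5.22 CPM in sham at day 7, 6.46, 12.5 and 7.71 CPM in PNX at day 7, 23.2 and 8.05 CPM in sham at day 14 and 10.1, 18.7 and 9.89 CPM in PNX at day 14, with PNX and sham overlapping on both days. It shares sequence with Ccl27b and other copies and overlaps Il11ra1 on the opposite strand, so its counts are uncertain. Cxcl15, made by lung epithelium, ranged from 0.145 CPM (sham day 7 replicate 3) to 160 CPM (sham day 14 replicate 1). Cx3cl1, the ligand of Cx3cr1, ranged from 2.32 to 27.7 CPM, Ccl25 from 0.314 to 7.75 CPM, Ccl28 from 0.157 to 7.05 CPM and Cxcl17 from 0.290 to 2.80 CPM. None of these 5 had a p under 0.05 in any comparison. Epithelial markers summed to 216 to 13638 CPM in sham at day 7, 969 to 2615 CPM in PNX at day 7, 3192 to 13736 CPM in sham at day 14 and 8006 to 18060.1 CPM in PNX at day 14, and their part in the Cxcl15 level was not tested.

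Ccl21 is the second ligand of Ccr7 and is known from lymphatic endothelium. The mouse has several near-identical copies of it, and the table splits their counts. The row Ccl21c was at 60.02, 75.6 and 11 CPM in sham at day 7, 353, 212 and 9.89 CPM in PNX at day 7 and 97, 158 and 164 CPM in PNX at day 14, and had no count in either sham library of day 14. Against 3 counts over those 2 libraries (0.269 CPM), the pooled level of PNX at day 14 (139.7 CPM) was at least 520-fold higher. This row does not measure the gene on its own. The row Gm13304, whose sequence matches Ccl21b over all of Ccl21b's 31-base stretches, had 336 and 703 counts in the same 2 sham libraries, while Ccl21a and Ccl21b had none in any library.

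With the Ccl21 rows summed (Ccl21a, Ccl21b, Ccl21c, Gm10591, Gm13304 and Gm21541), a step chosen after seeing the data, the level was 151, 311 and 11 CPM in sham at day 7, 1408, 466 and 111 CPM in PNX at day 7, 113 and 85.8 CPM in sham at day 14 and 223, 646 and 659 CPM in PNX at day 14. The groups overlapped at day 7 and not at day 14. The log2 fold change was 2.07 ± 1.17 at day 7 and 2.36 ± 1.39 at day 14, and averaged over the days 2.22 ± 0.91, with edgeR adjusted p of 0.548, 0.788 and 0.455. For Ccl21c alone the fitted day 14 value had an adjusted p of 0.386, and of 0.0028 without PNX day 7 replicate 3. Without PNX day 7 replicate 1 the summed day 7 value was 0.81. A further row, Gm1987, had 172 to 12588 counts a library, but no table used here names it as a Ccl21 copy and no transcript of it was compared, so it was left out of the sum. With it added, a step also chosen after seeing the data, the sum was 36 to 875 CPM in sham and 359 to 3548 CPM in PNX at day 7, and 222 to 314 CPM in sham and 587 to 1578 CPM in PNX at day 14. The log2 fold changes were then 1.97 ± 1.09 at day 7, 2.15 ± 1.27 at day 14 and, averaged over the days, 2.06 ± 0.84, with edgeR adjusted p of 0.523, 0.788 and 0.44.

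All 6 lymphatic endothelial markers were higher after PNX at day 7 and at day 14, 1 of them (Flt4) at an unadjusted p under 0.05 at day 14 (3.19% of all genes). Their summed level was 261 to 314 CPM in sham at day 7, 400.5 to 869 CPM in PNX at day 7, 281 to 292 CPM in sham at day 14 and 443 to 739 CPM in PNX at day 14, without overlap on either day. The defining marker Prox1 was at 0.435 to 5.15 CPM in sham at day 7, 1.28 to 8.67 in PNX at day 7, 0.122 to 3.70 in sham at day 14, and after PNX at day 14 1.26 to 3.15. Prox1 thus overlapped between sham and PNX on both days and gave little of these sums. Sums without the genes that gave most to them were not compared. The part of lymphatic endothelial RNA in the Ccl21 level was not tested.

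The signalling receptors of chemokines are carried mostly by leukocytes. Of 19 chemokine receptors 15 were tested, and all 15 had a log2 fold change below 0 at day 14, 5 at an unadjusted p under 0.05 (3.63% of all genes), with a median of -1.84 beside -0.07 over all genes. At day 7, 10 were above 0 and 5 below, and none passed the adjusted threshold on either day. Ccr1, a receptor of Ccl3, Ccl5, Ccl6 and Ccl9 among others, was at 0.984, 2.15 and 0.870 CPM in sham and 4.42, 4.71 and 2.57 CPM in PNX at day 7, and at 10.4 and 17.8 CPM in sham and 1.87, 2.98 and 2.70 CPM in PNX at day 14. Its groups did not overlap on either day, with PNX above sham at day 7 and below at day 14, and the log2 fold changes were 1.56 ± 0.59 and -2.49 ± 0.61 (edgeR adjusted p 0.26 and 0.178). Cxcr6, the receptor of Cxcl16, had a log2 fold change of -2.36 ± 0.92 at day 14 (edgeR adjusted p 0.615). Ccrl2, which presents chemerin and does not signal by itself, ranged from 28.5 CPM (PNX day 7 replicate 2) to 104 CPM (sham day 14 replicate 2).

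Ackr3, the scavenging receptor of Cxcl12 that stromal cells carry, was detected in every library. It was at 59.9, 24.1 and 109 CPM in sham and 30.8, 24.9 and 36.2 CPM in PNX at day 7, and at 26.2 and 35 CPM in sham and 73.9, 50.5 and 98 CPM in PNX at day 14. The groups overlapped at day 7 and PNX lay above sham at day 14, with log2 fold changes of -1.07 ± 0.43 and 1.27 ± 0.49 (edgeR adjusted p 0.286 and 0.617). Of the other scavengers, Ackr1 lay between 0.644 and 7.31 CPM, Ackr2 between 6.34 and 20.7 CPM and Ackr4 between 0.471 and 10.4 CPM.

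Genes known to share the upstream signals of the induced members lay on both sides of 0 at day 7. Of 24 NF-κB and cytokine response genes, 11 were above 0 and 13 below at day 7 (3 and 3 at an unadjusted p under 0.05, beside 4.66% and 8.07% of all genes), with a median of -0.18. At day 14, 8 were above 0 and 16 below, with 1 lower at an unadjusted p under 0.05 (3.63% of all genes) and a median of -0.10. Zfp36, which destabilises cytokine and chemokine RNA, was at 1726, 1731 and 5371 CPM in sham and 545, 516 and 808 CPM in PNX at day 7, so that sham replicate 3 stood well above the others, with a log2 fold change of -2.24 ± 0.47 (edgeR adjusted p 0.0752). Csf1, the growth factor of macrophages, had -1.83 ± 0.42 (0.0853) and was also highest in sham day 7 replicate 3 at 426 CPM. That library was the lowest of all 11 for 12 of the 33 chemokines, Cxcl5 and Cxcl10 among them. For Ccl7, Ccl2, Cxcl1 and Cxcl2 it was the highest of the sham libraries of day 7, at 765, 343, 385 and 12.6 CPM. A link between these levels and Zfp36 was not tested. Csf3, the growth factor of neutrophils, was at 0, 1.29 and 0 CPM in sham and 13.4, 0.831 and 16.4 CPM in PNX at day 7, with a log2 fold change of 4.74 ± 1.35 (0.15). Il6 was at 419 and 234 CPM in sham and 204, 159 and 154 CPM in PNX at day 14, with -0.92 ± 0.44 (0.728).

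Of 20 interferon-γ response genes, 13 were above 0 and 7 below at day 7 (1 and 2 at an unadjusted p under 0.05, beside 4.66% and 8.07% of all genes), with a median of 0.28. At day 14, 4 were above 0 and 16 below (0 and 4 at an unadjusted p under 0.05, beside 3.19% and 3.63%), with a median of -0.85. Irf8, an interferon-responsive transcription factor of myeloid cells, had log2 fold changes of -1.26 ± 0.32 and -0.95 ± 0.35 (edgeR adjusted p 0.106 and 0.594). Iigp1, an interferon-induced GTPase, was at 208 and 951 CPM in sham and 149, 286 and 292 CPM in PNX at day 14, with -1.26 ± 0.53 (0.683), and sham replicate 2 was the high library. Socs1, which dampens interferon signals, had -2.48 ± 0.61 at day 7 (0.107). Of 21 cytokine receptors and signal transducers upstream of these genes, 7 were above 0 and 14 below at day 7 and 10 above and 11 below at day 14, with medians of -0.32 and -0.09. Il6st, the shared subunit of interleukin 6 family receptors, had -1.20 ± 0.40 at day 7 (0.195), and Ifnar1, a subunit of the type I interferon receptor, 1.03 ± 0.43 at day 14 (0.687). None of these lists had a member past the adjusted threshold on either day.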

How the data were processed

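RNA of sorted lung mesenchymal cells was purified on small-scale columns and made into low-input libraries, per the labels. The deposited values are whole read counts per gene symbol, made by the authors, and the submitters' processing notes name mm10 and bcl2fastq 2.20.0.422. The aligner, counter, annotation and strand setting are not given in the sources used here. All 11 columns were used, and groups follow the labels.

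edgeR 4.0.16 (R 4.3.3) kept 16011 genes with filterByExpr over the groups, scaled them by TMM and fitted 4 group means with robust quasi-likelihood (7 residual degrees of freedom, median prior 10.8). The Benjamini-Hochberg adjustment ran over the full table, with 0.05 as threshold. Every adjusted or unadjusted p is from this fit unless another tool is named. A standard error is the log2 fold change divided by the square root of F. Alternatives were DESeq2 1.42.0, limma 3.58.1 voom, other scalings and filters, a replicate block and leaving out libraries. The steps were tested on simulated data.

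Locations, exon lengths and shared 31-base stretches are from GENCODE M21, promoters from RefSeq (GRCm38.p6). Members with an unadjusted p under 0.05 in any of 6 comparisons, and the 4 fibroblast-typical members highest per length, have values for every library, others ranges. Of other lists up to 3 genes of smallest p per day are named, and some listed genes are not reported here. Members and lists were chosen with earlier results of these data known. Figures used matplotlib 3.10.9.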

Additional observations from a re-analysis of the deposited data

How the results depend on the processing

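The totals of 2539628 to 9008592 counts and 2 or 3 libraries a group limit what can be called, above all for members under about 5 CPM, and sham at day 14 rests on 2 libraries. The number of members at 1 CPM in 2 libraries was 33, also without TMM factors, and 29 at 5 CPM. Total counts in place of TMM moved the median of all genes by 0.182 at day 7 and -0.191 at day 14 (log2). No result that was followed across the settings turned its direction. Those results were the medians and selected fold changes of members, most of them with an unadjusted p under 0.05 in edgeR. The other fold changes were not followed in this way. Percentages after counts of calls are shares of all genes given an adjusted p under that setting. For the values below that differ from the main setting, the cause was not tested.

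In the count of members called higher after PNX at day 7 (0 in the main setting), no filter on low counts gave 2 (0.191%), DESeq2 4 (1.02%) and limma voom 3 (1.56%), and in the count called lower (0) DESeq2 (2.49%) and limma voom (3.6%) each gave 1. At day 14 DESeq2 (0.464%) and the fit of only the groups compared (0.142%) each called 1 member higher (0), and the count called lower (0) was 1 with no filter (0.0564%), 3 with DESeq2 (0.304%), 4 with only the groups compared (0.227%) and 1 (0.0942%) without the 3 libraries of highest olfactory and vomeronasal receptor background (replicate 2 of sham and of PNX at day 7, and replicate 1 of sham at day 14). In the mean of both days DESeq2 called 2 higher (0), with 1.02% of all genes, and 2 lower (1), with 1.35%, and limma voom 0 lower (0.0125%). For the difference between days DESeq2 called 1 higher (0), with 0.528%, and 2 lower (0), with 0.571%, and no filter 2 lower (0.026%). Between sham days the count called higher (1) was 0 with total counts, limma voom or only the groups compared (0.0% each), 4 with no filter (0.221%), 10 with DESeq2 (2.65%) and 2 without the 3 background libraries (0.0879%), and DESeq2 called 1 lower (0), with 2.88%. The median at day 14 (-0.66) was -0.19 without the 3 background libraries, which leave 1 sham library at day 14.

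Replicate numbers are shared between groups, but the deviations of same-numbered libraries from their group means correlated at -0.135, 0.56 and 0.241 at day 7 and -0.271 and -0.21 at day 14, so the numbers were not taken to pair the libraries. With the number as a replicate block, the count of members lower in the mean of both days was 0 (0.0187% of all genes), with Cxcl14 at -1.19 (adjusted p 0.175), and the other counts of calls stayed within 1.5 times of the unblocked ones.

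Leaving out 1 library at a time gave 0 to 1 members higher and 0 to 0 lower at day 7, 0 to 1 higher and 0 to 1 lower at day 14, 0 to 1 higher and 0 to 2 lower in the mean of both days (2 without sham day 7 replicate 1), 0 to 3 lower for the difference between days (3 when sham day 7 replicate 2 was left out, 2 for sham day 14 replicate 2), and 1 to 5 higher and 0 to 1 lower between sham days (3 higher without sham day 7 replicate 1 or 2, 5 without sham day 14 replicate 2). The medians ranged from 0.523 to 1.02 at day 7 and from -1.03 to -0.211 at day 14. Where this leaves 1 library in sham at day 14, it is assumed to vary like the other groups.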
